A study of Mus musculus with 15 samples.

Results

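Kinesins are motor proteins that hydrolyze ATP to move along microtubules or to take them apart. The transcripts described here are those whose gene symbol begins with *Kif* or *Kifc*, 44 of the 21727 transcripts counted, in ribosome-protected fragments (RPFs) from mouse embryonic stem cells (mESCs). Of the 44, 42 encode motors: 15 were classed as mitotic kinesins, 17 as transport kinesins and 10 as ciliary or other kinesins, from their textbook roles. The remaining 2 match the symbol only. *Kif1bp* encodes a kinesin binding protein and not a motor, and *Kif4-ps* is a processed pseudogene with no coding sequence (CDS) and a count of 0 in every library.

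The cells were E14Tg2a.4 mESCs, a line of pluripotent cells grown without feeders. In the *Rps27-FLAG* and *Rps27l-FLAG* lines, CRISPR editing put a 3xFLAG tag at the C terminus of the ribosomal protein Rps27 or its paralog Rps27l on both alleles. The third line (WT) was untagged and matched for passage. Each line was represented by 3 clones, each grown from a single cell, and all cells received cycloheximide, which halts elongating ribosomes, before lysis. Total RPFs came from all 9 clones, and IP RPFs, those that an anti-FLAG immunoprecipitation pulled down with the tagged ribosomes, came from the 6 tagged clones. An IP from untagged cells was not analysed here, so RNA held back by the beads and RNA on tagged ribosomes cannot be told apart. The design asks whether ribosomes with either paralog carry other mRNAs than the ribosome pool of the same cells, and whether the tags alter that pool.

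Mitotic kinesins build and work the spindle. Some slide antiparallel microtubules to push the poles apart, some depolymerize microtubule ends at kinetochores, some move chromosomes toward the spindle equator, and others bundle the midzone on which the cleavage furrow forms. Most transport kinesins carry organelles, vesicles and mRNAs toward microtubule plus ends, usually with light chains or adaptor proteins that select the cargo. mESCs divide fast and spend a large part of their cycle in S phase, and many mitotic kinesin mRNAs peak late in the cell cycle.

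All kinesin motors share a nucleotide-binding loop (P-loop) that grips the phosphates of ATP. A P-loop was found in the CDS of all 42 motors and not in that of *Kif1bp*. In 31 motors it began within 5.35% to 18.5% of the way through the CDS, so these motor domains lie at the amino terminus. In *Kif2a*, *Kif2b* and *Kif2c*, the microtubule depolymerases, it began 44.2%, 45.3% and 47.6% of the way along. In *Kifc1*, *Kifc2*, *Kifc3* and *Kifc5b* it began at 60.9%, 61.3%, 63.8% and 60.8%, the carboxy-terminal motor arrangement of minus-end directed kinesins. The loop codons are printed below for 7 motors on which the results turn and for the pair *Kifc1* and *Kifc5b*, 5′ to 3′ on the coding strand, with the last 3 codons of the loop, which contact the phosphates, in capitals.
Kif20b: ggtctgaccaattctGGAAAAACA
Kif14: ggccagactggctctGGAAAGTCC
Kif18a: ggtgccactggatctGGGAAAACT
Kif4: gggcagactggatctGGAAAAACG
Kif24: ggacaaacaggtgcgGGGAAAACC
Kif1c: gggcagacgggggctGGGAAGTCC
Kif11: ggtcagactggcactGGAAAAACT
Kifc1: ggacagacaggcagtGGCAAGACC
Kifc5b: ggacagacaggcagtGGCAAGACC

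In GRCm38 with GENCODE M21, these codons lie in exon 5 of *Kif20b* (chr19:34929786-34929809, + strand), exon 2 of *Kif14* (chr1:136471546-136471569, + strand), exon 3 of *Kif18a* (chr2:109289690-109289713, + strand) and exon 3 of *Kif4* (chrX:100633865-100633888, + strand). Those of *Kif24* are in exon 5 (chr4:41413996-41414019, - strand), of *Kif1c* in exon 5 (chr11:70703804-70703827, + strand) and of *Kif11* in exon 4 (chr19:37384736-37384759, + strand). The *Kifc1* loop is in exon 7 (chr17:33883384-33883407, - strand) and the *Kifc5b* loop in exon 7 of its gene (chr17:26924480-26924503, + strand). The loops of *Kifc1* and *Kifc5b* are identical, and so is most of their CDS: of the 28-nt windows of the counted CDS, 69.5% of those of *Kifc1* and 69.7% of those of *Kifc5b* occur in the other transcript. A footprint from such a window aligns to both and was dropped by the unique-alignment step, so the levels of this pair are uncertain and too low by an unknown amount. No other member shared more than 1.03% of its windows with any transcript of the table.

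Libraries held 3970130 to 8012910 counts in nuclear-encoded CDSs, 3970130 to 6671185 in the 6 IP libraries and 6273785 to 8012910 in the 9 total libraries. The 7 pluripotency markers summed to 3050 to 3350 normalized CPM (counts scaled to a common library size) in total RPFs and 3480 to 3730 in IP RPFs, against 44.9 at most for any of the 4 lists of 5 fibroblast, primitive endoderm, trophoblast and neural markers, of which none was at 0 in all libraries. On principal components of all tested transcripts, the first (38.5% of variance) separated replicate 1 of every line and replicate 2 of *Rps27l-FLAG* from the other 5 clones, in both fractions, and the second (19.0%) separated IP from total libraries. That split crosses the lines, and its part in the comparisons between lines was not tested.

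Levels were compared between transcripts as normalized CPM per kb of counted CDS, a footprint density that reflects both mRNA amount and ribosomes per mRNA. In these bulk cultures, fewer cells that express a gene and less RNA per cell cannot be told apart. Of the 44 members, 32 passed the filter of more than 2 CPM in at least 14 of 15 libraries: 13 mitotic kinesins, 15 transport kinesins, 3 ciliary or other kinesins and *Kif1bp*. In WT total RPFs, the mitotic kinesins had a median density of 66.3 (range 6.30 to 184) and the transport kinesins one of 5.41 (range 1.71 to 149), beside 25.4 for all tested transcripts. The low end of the mitotic range is *Kifc1*, whose level is too low by an unknown amount. The mitotic kinesins together took 2981 normalized CPM and the transport kinesins 887.

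*Kif20a*, a motor of the central spindle and cytokinesis, was the densest at 184 ± 1.6 (SD, n = 3), above 89.7% of tested transcripts. *Kif11*, which slides spindle microtubules apart and is the target of mitotic inhibitors of the monastrol type, followed at 162 ± 2.0. *Kif5b*, the ubiquitous conventional kinesin heavy chain, was the one transport kinesin at this height, at 149 ± 9.3. The ranges of the 3 clones did not overlap between neighbors among the first 7: *Kif20a*, *Kif11*, *Kif5b*, *Kif22* (137 ± 3.0), *Kif2c* (122 ± 5.5), *Kif23* (100.1 ± 4.1) and *Kif20b* (66.6 ± 1.9). *Kif22* is the chromosome-arm motor that pushes chromosomes to the equator, *Kif2c* the kinetochore depolymerase, and *Kif23* the motor of centralspindlin. *Kif20b*, *Kif2a* (66.3 ± 5.8) and *Kif15* (62.0 ± 6.7) overlapped in turn, as did *Kif18a* (47.2 ± 4.1), *Kif18b* (42.0 ± 7.3) and *Kif4* (41.0 ± 2.0).

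After these came *Kif1bp* at 26.4 ± 1.1 and 3 transport kinesins: *Kif13b* at 23.6 ± 1.8, the mitochondrial and vesicle motor *Kif1b* at 19.7 ± 0.82, and *Kif3a*, a subunit of the heterotrimeric ciliary motor, at 18.4 ± 2.6. *Kif14*, a cytokinesis motor that recruits citron kinase, was far below most other mitotic kinesins at 14.3 ± 0.81. From *Kif5a* (8.71 ± 1.6) down to *Kif3c* (1.71 ± 0.18), every neighboring pair overlapped, so the order of these 15 is not resolved beyond the spread of clones. The plot of density by transcript shows the 2 classes side by side.

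**Figure D1:**
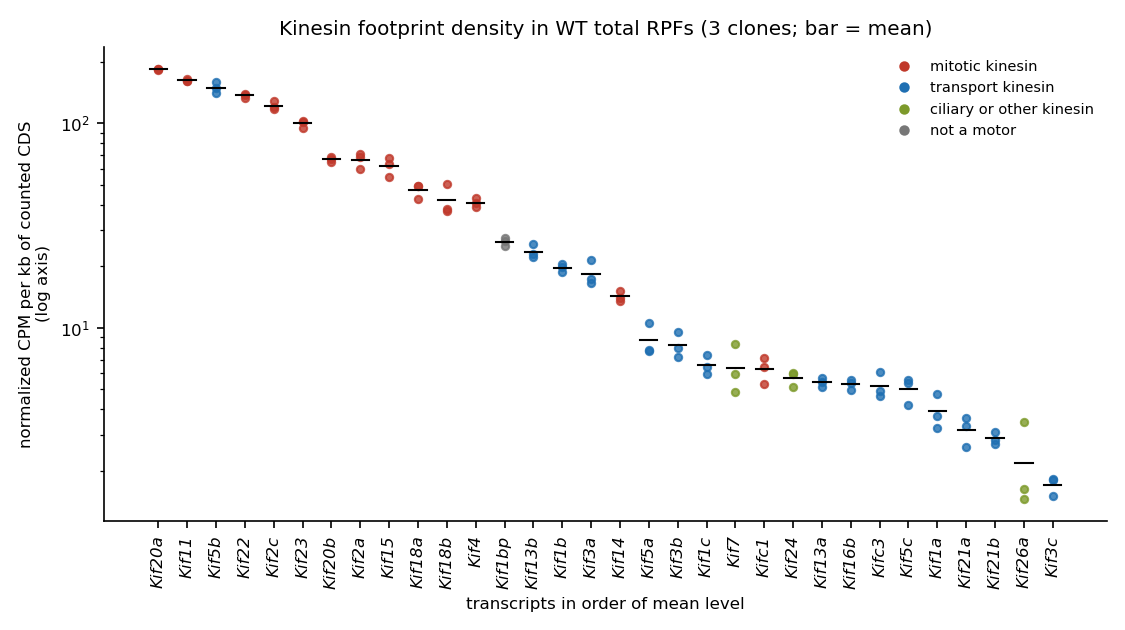
Normalized CPM per kb of counted CDS (log axis) of the 32 tested members in WT total RPFs, in order of their mean. Points are the 3 clones, bars their mean, and colors the class. Mitotic kinesins hold 11 of the first 12 places, with *Kif5b* the exception, and *Kif14* and *Kifc1* are the 2 mitotic kinesins lower in the order. The level of *Kifc1* is too low by an unknown amount, as footprints shared with *Kifc5b* were dropped.

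The other 12 members did not pass the filter. *Kifc5b* had 9 to 17 counts a library and *Kif19a* 4 to 23. *Kif17*, *Kif9*, *Kif26b*, *Kif27*, *Kifc2* and *Kif6* summed to 103, 99, 67, 54, 52 and 27 counts over the 15 libraries. *Kif28* had 7, *Kif2b* and *Kif12* had 1 count each, and *Kif4-ps* had 0. *Kif17* is a dendritic motor, *Kif2b* a depolymerase known mainly from testis, and *Kif6*, *Kif9*, *Kif19a* and *Kif27* are linked to motile cilia. All had too few counts for a comparison, and those of *Kifc5b* are too low by an unknown amount because footprints shared with *Kifc1* were dropped.

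In *Rps27-FLAG* cells, no kinesin was higher in IP than in total RPFs, and 6 were lower by edgeR's quasi-likelihood test with Benjamini-Hochberg adjustment over all 10085 tested transcripts (adjusted p under 0.05). They were the mitotic *Kif20b*, *Kif14*, *Kif18a*, *Kif4* and *Kif22* and, among the ciliary or other kinesins, *Kif24*. No transport kinesin passed. Over all tested transcripts, 5.34% were lower and 0.337% higher by the same test. The median log2 fold change was -0.22 over 13 mitotic kinesins, -0.27 over 15 transport kinesins and -0.61 over the 3 others, beside -0.01 over all tested transcripts. All 15 transport kinesins and 9 of 13 mitotic kinesins were below 0.

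In *Rps27l-FLAG* cells, again no kinesin was higher in the IP, and 3 were lower: *Kif14*, *Kif18a* and *Kif20b*. By the same test, 2.27% of tested transcripts were lower and 0.833% higher. Medians were -0.11 for mitotic, -0.16 for transport and -0.52 for the other kinesins, beside -0.03 for all tested transcripts, and 14 of 15 transport and 12 of 13 mitotic kinesins were below 0. The 2 IP comparisons share no library. All 3 kinesins called in *Rps27l-FLAG* cells were among the 6 called in *Rps27-FLAG* cells.

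*Kif20b*, a motor of late cytokinesis and abscission, had 216, 244 and 233 normalized CPM in *Rps27-FLAG* IP RPFs, against 324, 365 and 339 in the total RPFs of the same clones. In *Rps27l-FLAG* cells the values were 250, 259 and 266 in IP and 313, 322 and 351 in total RPFs. All 6 IP libraries were below all 6 total libraries of the tagged lines, and the 3 WT total libraries, at 353, 340 and 360, lay with the other totals. The log2 fold change was -0.57 ± 0.072 (SE) in *Rps27-FLAG* (edgeR adjusted p = 0.00455) and -0.35 ± 0.062 in *Rps27l-FLAG* (edgeR adjusted p = 0.024).

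*Kif14* had 28.6, 37.3 and 41.0 normalized CPM in *Rps27-FLAG* IP and 65.7, 64.2 and 63.5 in total RPFs. In *Rps27l-FLAG* it had 43.2, 44.8 and 44.0 in IP and 68.3, 69.7 and 70.0 in total RPFs. IP and total libraries were far apart in both lines, with replicate 1 of the *Rps27-FLAG* IP lowest. Its log2 fold changes, -0.87 ± 0.13 (edgeR adjusted p = 0.00824) and -0.66 ± 0.073 (edgeR adjusted p = 0.00544), were the lowest of the 32 members in both lines, and ranked 53 and 85 from the bottom of the 10085 tested transcripts.

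*Kif18a*, which dampens chromosome oscillations at the spindle equator, had 71.3, 77.2 and 90.9 normalized CPM in *Rps27-FLAG* IP and 107, 118 and 123 in total RPFs. The *Rps27l-FLAG* values were 88.0, 97.4 and 85.9 in IP and 124, 128 and 129 in total RPFs. Groups did not overlap in either line. The log2 fold changes were -0.54 ± 0.10 (edgeR adjusted p = 0.0213) and -0.49 ± 0.075 (edgeR adjusted p = 0.0184).

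*Kif4*, the chromosome-bound motor that also sets midzone length, had 127, 122 and 128 normalized CPM in *Rps27-FLAG* IP and 158, 157 and 152 in total RPFs, a log2 fold change of -0.31 ± 0.056 (edgeR adjusted p = 0.0195). *Kif22* had 245, 245 and 249 in IP and 282, 288 and 291 in total RPFs, the smallest of the 6 changes at -0.22 ± 0.052 (edgeR adjusted p = 0.0497). In both cases the 3 IP libraries agreed closely and lay below every total library. In *Rps27l-FLAG* cells *Kif4* was at 143, 135 and 146 in IP and 157, 159 and 166 in total RPFs, and *Kif22* at 248, 245 and 275 and at 272, 259 and 299.5, and neither passed the test there (-0.18 ± 0.065 and -0.11 ± 0.075). *Kif22* libraries overlapped between fractions in *Rps27l-FLAG*, as all values of replicate 3 were high.

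*Kif24*, a centriole-bound kinesin that restrains the growth of primary cilia, was sparse, with 55 to 89 counts in *Rps27-FLAG* IP and 128 to 148 in total RPFs. Its normalized CPM were 12.9, 13.8 and 12.7 in IP and 17.9, 21.0 and 21.1 in total RPFs (log2 fold change -0.61 ± 0.13, edgeR adjusted p = 0.0406). In *Rps27l-FLAG* they were 17.5, 16.2 and 10.99 in IP and 21.5, 22.1 and 21.0 in total RPFs, with a fold change of -0.52 ± 0.17 that did not pass. The sparse counts left *Kif24* with larger errors than the abundant mitotic kinesins.

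**Figure D2:**
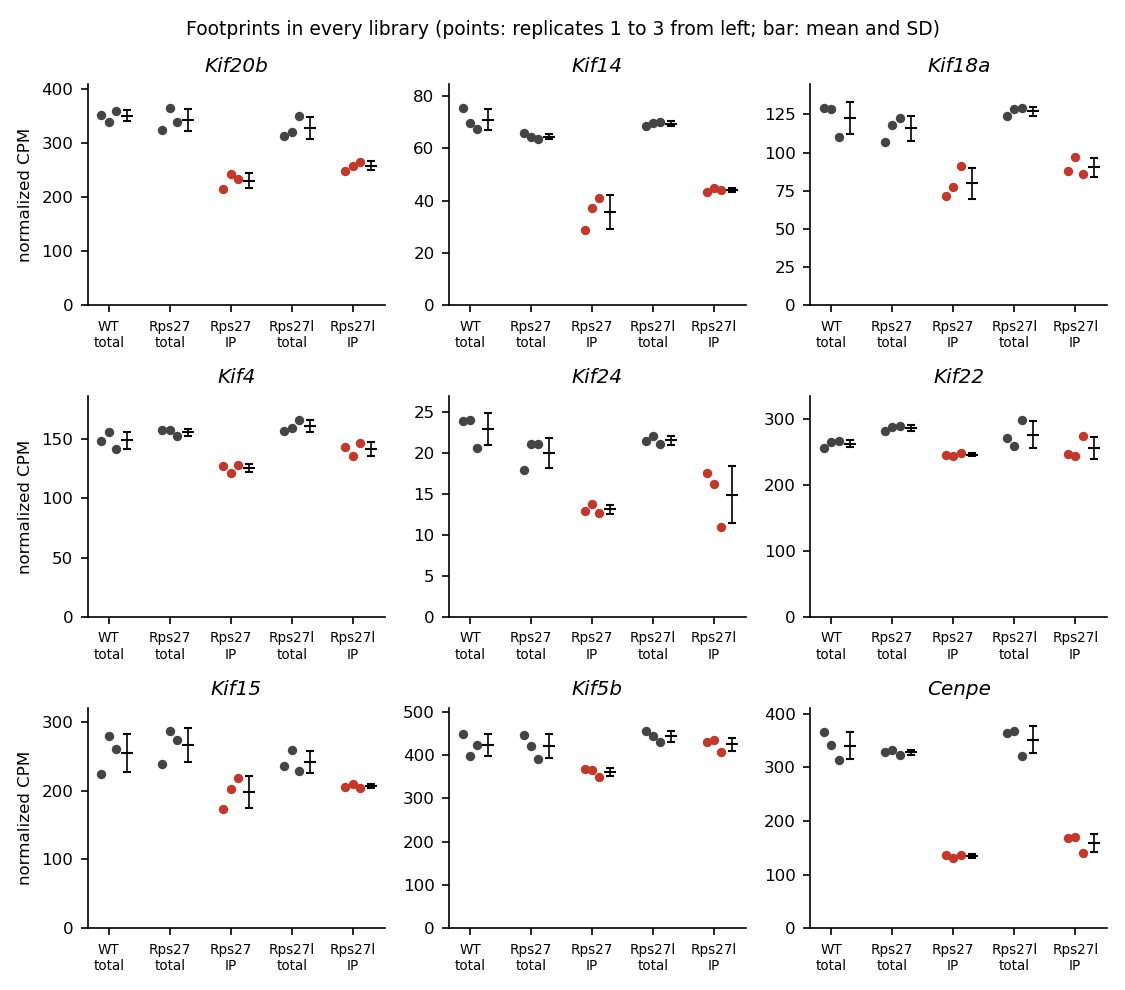
Normalized CPM (linear axis from 0) of 8 kinesins and *Cenpe* in each of the 15 libraries; gray points are total RPFs, red points IP RPFs, and the bar beside each group gives the mean and SD of the 3 replicates. The IP points lie below the total points of the same line in every panel except those of *Kif22* and *Kif5b* in *Rps27l-FLAG*, where they overlap.

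*Kif20a* and *Kif11*, the densest members, had smaller fold changes than the kinesins called in *Rps27-FLAG*. *Kif5b* and *Kif22*, next in density, were both at -0.22 in *Rps27-FLAG*. *Kif11* had 500.3, 547 and 533 normalized CPM in *Rps27-FLAG* IP and 488, 551 and 536 in total RPFs (0.0048 ± 0.068), and 497, 531 and 574 against 495, 523 and 517 in *Rps27l-FLAG* (0.061 ± 0.061). *Kif20a* was at 453, 479 and 463 in *Rps27-FLAG* IP and 503, 515 and 514 in total RPFs (-0.14 ± 0.053). In *Rps27l-FLAG* it was at 478, 466 and 526 and at 509, 497 and 555 (-0.086 ± 0.065). Neither *Kif11* nor *Kif20a* passed the test in either line, and for *Kif20a* only the *Rps27-FLAG* fractions were free of overlap.

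Among transport kinesins, *Kif5b* had 368, 365 and 350.3 normalized CPM in *Rps27-FLAG* IP and 447, 421 and 392.2 in total RPFs (-0.22 ± 0.065), and 431, 436 and 408 against 455, 443 and 432 in *Rps27l-FLAG* (-0.062 ± 0.050). *Kif13b*, a vesicle motor that binds the scaffold Dlg, had 112, 103 and 99.0 in *Rps27-FLAG* IP and 125, 108 and 105 in total RPFs (-0.11 ± 0.086), and 128, 118 and 117 against 142, 122 and 119 in *Rps27l-FLAG* (-0.077 ± 0.090). The *Kif5b* fractions were apart in *Rps27-FLAG* and overlapped in *Rps27l-FLAG*, and those of *Kif13b* overlapped in both. *Kif1c*, a Golgi and mRNA transport motor, had 18.5, 14.3 and 15.4 against 25.2, 18.2 and 23.0 in *Rps27-FLAG* (-0.45 ± 0.17) and 17.9, 15.3 and 12.01 against 26.4, 23.4 and 20.5 in *Rps27l-FLAG* (-0.63 ± 0.17), the lowest fold change of any transport kinesin there. *Kif7*, the ciliary regulator of Hedgehog signaling, had 22.7, 14.1 and 16.6 against 26.7, 21.9 and 22.5 (-0.40 ± 0.19) and 22.1, 21.4 and 17.4 against 34.5, 29.0 and 26.4 (-0.56 ± 0.15). None of these 4 passed the test in either line.

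IP and total RPFs of one clone share its profile, and with a term for each clone in the fit the number of calls rose for kinesins and for all transcripts alike. In *Rps27-FLAG* cells 21 of 32 members were then lower and 0 higher, against 22.9% lower and 18.3% higher of all tested transcripts. In *Rps27l-FLAG* 15 were lower and 0 higher, against 19% and 12%. By class, 9 of 13 mitotic kinesins were lower in each line, 9 and 4 of 15 transport kinesins, and 3 and 2 of the 3 others. The members lower in both lines numbered 13 of 32 (40.6%), beside 15.5% of all tested transcripts. These 13 are 61.9% of the *Rps27-FLAG* list and 86.7% of the *Rps27l-FLAG* list. Over all transcripts these shares were 67.7% and 81.4%, close to those of the members. The 13 included *Kif1c* (edgeR adjusted p = 0.000218 and 6.84e-06) and *Kif7* (0.000683 and 3.24e-06). A blocked fit by voom and limma, added after the data were seen, also gave 21 and 15. The blocked fits draw their spread almost wholly from all transcripts together, since only 2 residual degrees of freedom remain.

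Within clones, 21 of 32 members had a lower IP than total level in all 6 clones: 8 of 13 mitotic kinesins, 9 of 15 transport kinesins, all 3 others and *Kif1bp*. The same held for 22.6% of all tested transcripts. The median log2 ratio of IP to total RPFs over mitotic kinesins was -0.20, -0.22 and -0.22 in the *Rps27-FLAG* clones and -0.13, -0.17 and -0.14 in the *Rps27l-FLAG* clones. Over transport kinesins it was -0.19, -0.25 and -0.29, then -0.15, -0.15 and -0.18. The medians of the 2 classes thus lay close together in every clone. More mitotic than transport kinesins passed the test without the block, and mitotic kinesins were also counted more deeply, with a median of 22506 counts over the 15 libraries against 1932 for transport kinesins, and the part of depth in the difference between their call counts was not tested.

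**Figure D3:**
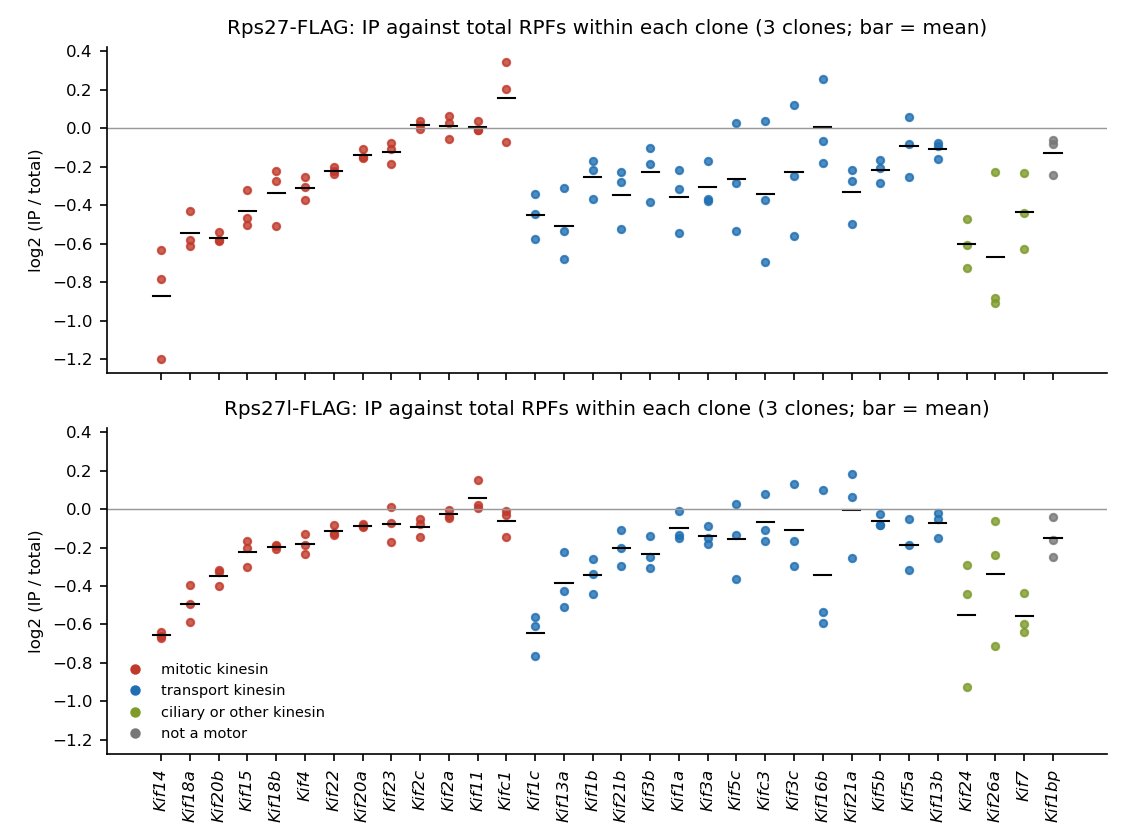
Log2 ratio of normalized IP to total RPFs within each clone for the 32 tested members, by class and then by mean ratio; points are the 3 clones of each line and bars their mean. *Kif14*, *Kif18a* and *Kif20b* are lowest among mitotic kinesins in both lines, *Kif11* and *Kif2a* lie near 0, and the sparse transport kinesins spread more between clones.

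Members whose libraries did not overlap were also counted. In *Rps27-FLAG*, all 3 IP libraries were below all 3 total libraries for 12 of 32 members (8 mitotic, 3 transport and 1 other), beside 17% of all tested transcripts. In *Rps27l-FLAG* this held for 13 (7 mitotic, 4 transport and 2 others), beside 14.2%. For no member were the 3 IP libraries all above the total libraries in either line, beside 11.3% and 9.11% of tested transcripts.

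Kinesin CDSs are long. The median was 2664 nt for the tested mitotic, 3303 nt for transport and 4071 nt for the other kinesins, beside 1440 nt for all tested transcripts. In both lines the IP fold change fell with CDS length across all transcripts (Spearman's rho -0.56 and -0.53 over 10082 transcripts, a description across genes, which are not independent). Among non-kinesins, CDSs up to 1000 nt had median log2 fold changes of 0.14 (*Rps27-FLAG*) and 0.094 (*Rps27l-FLAG*), those between 2000 and 3000 nt -0.12 and -0.11, and those over 5000 nt -0.40 and -0.33. Among the 31 tested motors rho was -0.52 and -0.39, with the same libraries behind every point. Within the classes it was -0.66 and -0.48 over 13 mitotic kinesins and -0.13 and -0.17 over 15 transport kinesins.

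**Figure D4:**
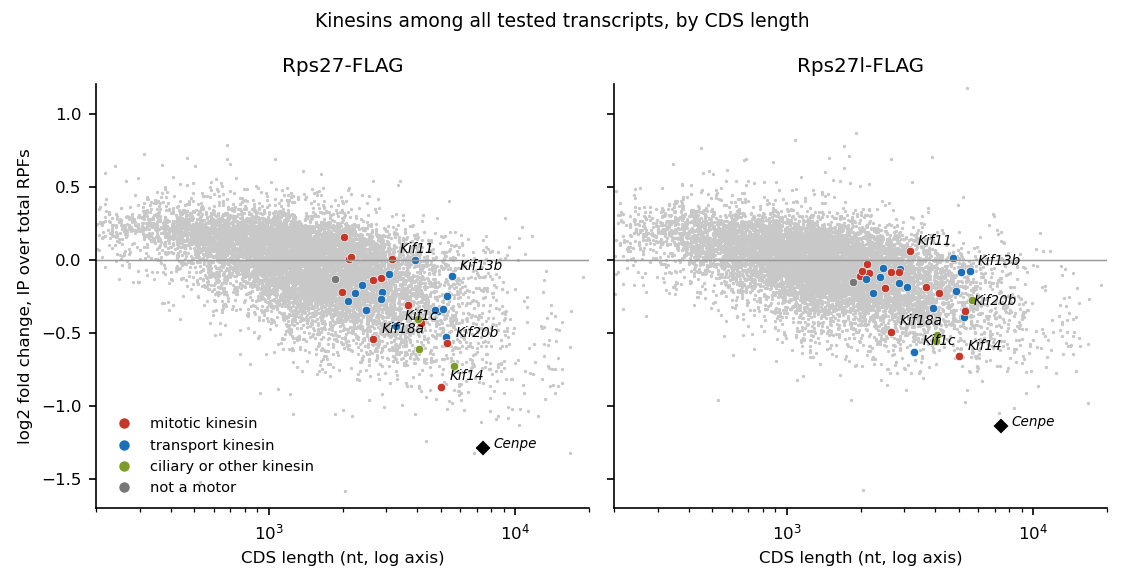
Log2 fold change of IP over total RPFs against CDS length (log axis) for 10082 tested transcripts (gray) and the tested kinesins (colors) in each tagged line, with *Cenpe* as a black diamond; 33 and 34 transcripts lie outside the axes. Most kinesins lie inside the gray cloud, which falls toward long CDSs, while *Kif14* and *Cenpe* lie at its lower edge. *Kif11* lies above the middle of the cloud at its length, within the usual range.

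Each kinesin was therefore set against the non-kinesin transcripts within 10% of its CDS length, 198 to 1006 of them. In *Rps27-FLAG*, 7 of 13 mitotic and 11 of 15 transport kinesins were below the median of such transcripts, with a median difference of -0.070 and -0.066 log2 units. In *Rps27l-FLAG* the numbers were 8 of 13 and 9 of 15, and the differences -0.0028 and -0.0076. As groups, then, both classes lay near transcripts of their own length, in *Rps27l-FLAG* more closely than in *Rps27-FLAG*. Of the 3 ciliary or other kinesins, 3 and 2 were below the median of like-length transcripts, with median differences of -0.36 and -0.32, and *Kif26a* was 0.011 above it in *Rps27l-FLAG*.

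The named members took different places among transcripts of like length. *Kif14* was 0.58 below their median in *Rps27-FLAG* and 0.43 below it in *Rps27l-FLAG*, with only 1.86% and 2.79% of its 215 neighbors lower. *Kif18a* was 0.41 and 0.35 below, with 7.03% and 5.68% of 740 neighbors lower, and *Kif24* 0.36 and 0.32 below, with 8.61% and 4.72% of 360 lower. For *Kif20b*, whose CDS has 5325 nt, 16.2% and 32.8% of 198 neighbors were lower, and for *Kif4* 38.9% and 55.4% of 455, so these sat within the usual range for their length. *Kif1c* and *Kif7* were near the bottom in *Rps27l-FLAG*, with 2.34% and 2.95% of neighbors lower, against 20.5% and 25.2% in *Rps27-FLAG*; the difference between lines did not pass the test for either. *Kif11* was 0.18 and 0.22 above the median of its length, higher than 80.5% and 89.2% of 584 neighbors. *Kif13b* was 0.22 and 0.20 above, higher than 74.3% and 77.7% of 202 neighbors. Both were thus within the usual range for their length.

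With a CDS length trend removed from each library before the test, no kinesin passed in either line, against 6 and 3 without this step. Calls fell for all transcripts alike, to 0.555% lower and 0.307% higher in *Rps27-FLAG* and to 0.0198% and 0.0397% in *Rps27l-FLAG*. The medians of mitotic kinesins became -0.073 and 0.0049, and those of transport kinesins -0.041 and -0.010. With clone terms and removal of the length trend in one fit, 8 members were lower and 4 higher in *Rps27-FLAG*, beside 13.5% and 17.4% of all tested transcripts. In *Rps27l-FLAG* 4 were lower and 3 higher, beside 8.85% and 13.7%, so the members that were higher made up no larger share than among all transcripts. *Kif14* (-0.57 ± 0.068 and -0.40 ± 0.065) and *Kif18a* (-0.39 ± 0.048 and -0.35 ± 0.048) were lower in both lines, and *Kif11* (0.21 ± 0.032 and 0.22 ± 0.030) and *Kif13b* (0.23 ± 0.045 and 0.19 ± 0.044) were higher in both, by edgeR's quasi-likelihood test. *Kif2a* and *Kif2c*, both depolymerases, passed upward in *Rps27-FLAG* (0.12 ± 0.039 and 0.12 ± 0.033), and *Kif5b* in *Rps27l-FLAG* (0.089 ± 0.030).

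With a clone left out, 2 clones remain per fraction and the number of calls changed more than the fold changes did. Leaving out replicate 2 or replicate 3 of *Rps27-FLAG* left none of the 6 calls, with log2 fold changes of -0.91 and -0.98 for *Kif14*, -0.56 and -0.59 for *Kif20b* and -0.51 and -0.60 for *Kif18a*. Leaving out replicate 1 gave 13 calls, all lower, with *Kif14* at -0.71. In *Rps27l-FLAG*, none of the 3 calls was left without replicate 1 or replicate 2, and all 3 remained without replicate 3. The fold changes without replicate 1 or 2 were -0.66 and -0.67 for *Kif14*, -0.49 and -0.54 for *Kif18a* and -0.36 and -0.36 for *Kif20b*. None of the members called with all clones in the fit turned direction.

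The IP effect was then compared between the tagged lines, as the *Rps27l-FLAG* fold change minus the *Rps27-FLAG* one with each clone's own total as its reference. No kinesin passed both an adjusted p under 0.05 and the limit of 0.25 on the log2 difference, which 0.466% of tested transcripts passed upward and 0.0992% downward. Without the limit, 3 kinesins differed, all less depleted in the *Rps27l-FLAG* IP, beside 1.34% of transcripts upward and 0.139% downward. *Kif20b* differed by 0.23 ± 0.045 (edgeR adjusted p = 0.000628). *Kif15*, a spindle motor that can replace *Kif11* and is named here after its values were seen, differed by 0.21 ± 0.050 (edgeR adjusted p = 0.00724), and *Kif5b* by 0.16 ± 0.042 (edgeR adjusted p = 0.0203).

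The clones of the 2 lines did not overlap for these 3, nor for 6 other members, *Kif1a*, *Kif4*, *Kif18b*, *Kif20a*, *Kif22* and *Kif2c*. Of these 9, 8 had all *Rps27l-FLAG* ratios above all *Rps27-FLAG* ratios, beside 9.08% of all tested transcripts, and *Kif2c* was the reverse, beside 7.13%. The within-clone log2 ratios of *Kif20b* were -0.59, -0.58 and -0.54 in *Rps27-FLAG* and -0.33, -0.31 and -0.40 in *Rps27l-FLAG*. Those of *Kif15* were -0.47, -0.50 and -0.32 against -0.20, -0.30 and -0.17, and those of *Kif5b* -0.28, -0.21 and -0.16 against -0.081, -0.023 and -0.081. *Kif15* had 173, 202 and 219 normalized CPM in *Rps27-FLAG* IP and 239, 286 and 273 in total RPFs, and 205, 210 and 204 against 236, 259 and 229 in *Rps27l-FLAG*. With the length trend removed *Kif20b* still differed (0.17 ± 0.046, edgeR adjusted p = 0.0383), and *Kif15* (0.16 ± 0.049, edgeR adjusted p = 0.0697) and *Kif5b* (0.14 ± 0.043, edgeR adjusted p = 0.0913), with differences of like size, did not pass. Without the clone in the fit none passed.

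The median difference was 0.061 over 13 mitotic and 0.10 over 15 transport kinesins, beside -0.0030 over all tested transcripts, and 0.013 and 0.030 over the medians of their like-length transcripts. Of the 32 members, 9 reached an unadjusted p under 0.05, beside 12.1% of all tested transcripts. *Kif26a*, an atypical kinesin without ATPase activity, had the largest difference at 0.48 ± 0.22, but on 23 to 138 counts a library. *Kif16b*, an early endosome motor, had the lowest at -0.31 ± 0.17. Errors this large leave differences of the size seen for *Kif20b* undetectable in sparse members.

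**Figure D5:**
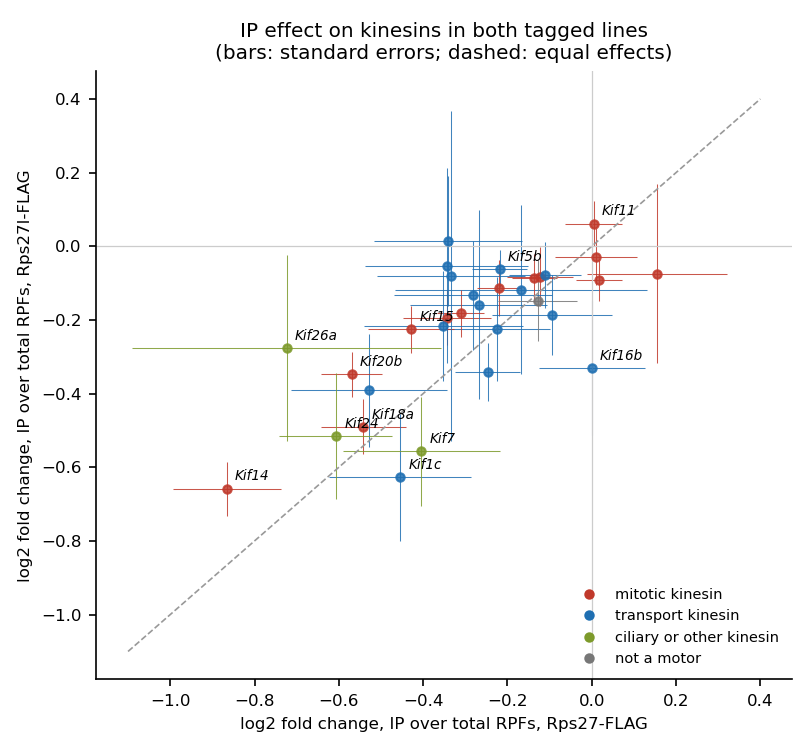
Log2 fold change of IP over total RPFs in *Rps27l-FLAG* against that in *Rps27-FLAG* for the 32 tested members, with standard errors as bars and a dashed line where both are equal. *Kif20b*, *Kif15* and *Kif5b* lie above the line with short bars, and *Kif14* lies lowest in both lines.

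Tagging was not accompanied by a detectable change in kinesin total RPFs. No member passed in total RPFs of *Rps27-FLAG* against WT, *Rps27l-FLAG* against WT or *Rps27l-FLAG* against *Rps27-FLAG*, and 0% of all tested transcripts did in either direction by edgeR. Nor did any kinesin pass by voom and limma or by DESeq2. At an unadjusted p under 0.05, 1, 3 and 0 members were counted, beside 2.92%, 5.69% and 5.75% of all tested transcripts, in these comparisons, which share the total libraries of each line. *Kif21a*, a growth-slowing kinesin of neurons, was the furthest from WT, at -0.55 ± 0.16 in *Rps27-FLAG* and -0.38 ± 0.16 in *Rps27l-FLAG*. With the replicate number, which marks a library pool, as a block no member passed either, where 0.00992% of transcripts were lower and 0% higher in *Rps27-FLAG* than in WT, 1.06% and 0.367% in *Rps27l-FLAG*, and 0.714% and 0.645% in *Rps27l-FLAG* than in *Rps27-FLAG*. Without the block, mitotic medians stayed within 0.029 of 0 in all 3 comparisons. The transport median reached 0.12 in *Rps27l-FLAG* against *Rps27-FLAG*. The 3 ciliary or other kinesins had medians of -0.10 (*Rps27-FLAG* against WT), 0.076 (*Rps27l-FLAG* against WT) and 0.18 (*Rps27l-FLAG* against *Rps27-FLAG*).

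The summed mitotic kinesins were steady across total libraries, at 2960, 3016 and 2968 normalized CPM in WT, 2947, 3149.9 and 3114 in *Rps27-FLAG* and 2953, 3046 and 3089 in *Rps27l-FLAG*. In IP libraries they were 2538, 2727 and 2748, and 2677, 2758 and 2861. All 6 IP sums were thus below all 9 total sums. Sums over other transcripts of like length were not made, and IP fold changes fell with CDS length across all transcripts. With the length trend removed, the mitotic median log2 fold change was -0.073 in *Rps27-FLAG* and 0.0049 in *Rps27l-FLAG*. A share of mitotic kinesins beyond their length was thus not tested by these sums. The transport kinesins summed to 838 to 962 in total and 727 to 867 in IP libraries, with overlap between the ranges.

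*Kif26a* and *Kif7*, chosen after their values were seen, varied between clones along the first principal component. In total RPFs *Kif26a* had a density of 3.46 (WT), 3.06 (*Rps27-FLAG*), 2.66 and 2.32 (*Rps27l-FLAG*) in the 4 clones on one side, and 1.45, 1.63, 1.22, 1.77 and 1.90 in the other 5. *Kif7* had 8.33, 6.70, 8.66 and 7.28 in the first 4 and 5.97, 4.84, 5.49, 5.66 and 6.63 in the others. The 2 sets of clones did not overlap for either gene, for *Kif7* by a narrow gap, and each set holds clones of every line. The sets were drawn from a component of these same libraries and the genes were picked, so the lack of overlap is no separate evidence. How many other transcripts split in the same way was not counted. These values stand as a description, with no test.

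Lists of partners give a setting for the kinesins. Of 16 spindle and midzone proteins, all tested, *Cenpe* was lower in the IP of both lines and *Nusap1*, which bundles spindle microtubules, was higher in *Rps27-FLAG* (0.24 ± 0.056, edgeR adjusted p = 0.0477). Over all tested transcripts, 5.34% were lower and 0.337% higher in *Rps27-FLAG*, and 2.27% and 0.833% in *Rps27l-FLAG*. *Cenpe* is itself a kinesin, the kinetochore motor that captures microtubules, but its symbol does not carry the family name. It had 136, 131 and 136 normalized CPM in *Rps27-FLAG* IP and 329, 332 and 323 in total RPFs, then 168, 169 and 141 against 364, 367 and 322 in *Rps27l-FLAG*. The IP levels were under the lowest total level in every clone by a wide margin.

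Its log2 fold changes were -1.29 ± 0.055 (edgeR adjusted p = 0.000115) and -1.14 ± 0.089 (edgeR adjusted p = 0.00306), 5 and 2 from the bottom of all 10085 transcripts. Its CDS has 7416 nt, and the 110 transcripts of like length had medians of -0.39 and -0.33. The difference between lines did not pass for *Cenpe* (0.15, edgeR adjusted p = 0.129). The list of 16 had medians of 0.087 and 0.097 and a median CDS of 1941 nt, and 5 and 4 of its members were below the median of their like-length transcripts. With the clone as a block, 4 were lower and 8 higher in *Rps27-FLAG*, beside 22.9% and 18.3% of all tested transcripts. In *Rps27l-FLAG* 2 were lower and 9 higher, beside 19% and 12%. None of the *Kif* members, whose CDSs are mostly longer, was higher in these fits. With the length trend also removed, 4 and 3 *Kif* members were higher. The part of CDS length in the contrast with this list was not tested.

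Of 15 kinesin light chains, adaptors and cargo linkers, *Kidins220*, a membrane scaffold that kinesin-1 carries, was lower in the *Rps27-FLAG* IP (-0.45 ± 0.082, edgeR adjusted p = 0.0204), and none was higher or changed in *Rps27l-FLAG*. That call stands beside 5.34% of all tested transcripts lower in *Rps27-FLAG*. The medians of these 15 were -0.125 and -0.085. With the clone as a block, 5 and 3 were lower and 0 higher, where 22.9% and 19% of all tested transcripts were lower. No member of either list passed both limits in the comparison of the IP effect between lines, which 0.466% of all tested transcripts passed upward and 0.0992% downward. Without the fold limit, *Numa1* of the spindle list differed by 0.21 log2 units (edgeR adjusted p = 0.0158). That call stands beside 1.34% of all tested transcripts upward and 0.139% downward.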

How the data were processed

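Ribosome profiling libraries from 9 mESC clones gave 15 count columns, 9 of total RPFs and 6 of IP RPFs. The authors trimmed reads with cutadapt 2.4, collapsed PCR duplicates by unique molecular identifier with UMI-tools 1.0.1, aligned to GRCm38 transcripts with Bowtie2 2.3.4.3, and counted uniquely aligned A sites, leaving out the first 15 and last 5 codons of every CDS. The deposited values are these raw counts, with no normalization.

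The 21727 transcripts were matched to GENCODE M21, in which 14 had no entry, and 13 mitochondrially encoded ones were left out. As in the study's methods, transcripts above 2 CPM were kept (here in at least 14 of 15 libraries), and trimmed means of M-values (TMM) were computed separately for IP and total libraries. Counts were tested with edgeR 4.0.16 (estimateDisp, quasi-likelihood) in R 4.3.3, with Benjamini-Hochberg adjustment over 10085 transcripts at 0.05. IP against total was fitted per tagged line by fraction, total RPFs by line over 9 libraries, and the IP effect between lines with a term for each clone and a limit of 0.25 on the log2 difference, leaving *Tmod3* out of that count as the study did. The clones are separate single-cell isolates, so p-values without clone terms measure spread between clones, and those with clone terms rest largely on spread shared over transcripts. IP and total libraries of a clone share cells and their replicate number: deviations from group means correlated at 0.468 to 0.79 in all 6 clones, so the blocked values are given. The RPFs of a replicate number were also pooled for library construction. Normalized CPM is the count over the TMM-scaled library size, and within-clone ratios have 0.5 added to each count. The length trend is a loess fit (span 0.5) on log2 CDS length in each library. Alternatives were limma 3.58.1 (voom), DESeq2 1.42.0, other size factors, no filter, and each clone left out. The main fits of IP against total in *Rps27-FLAG*, of *Rps27-FLAG* against WT and of the IP effect between lines were also run on simulated counts. Those counts held no clone effect and no length trend. The blocked fits of IP against total and the fits with the length trend removed were not checked in this way.

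Members, classes and lists were chosen with earlier results of these data known. Values in every library are given for members past the threshold in any comparison (at most 8, by adjusted p), filled up to 8 by those past it in both lines with the clone as block, and for the 2 densest of each class; *Cenpe* is always given. P-loops were located by translating each CDS. Loop codons that span an intron are not printed. Of the loops chosen for printing, 1 is not reported here.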

Additional observations from a re-analysis of the deposited data

Results flagged for a closer look

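For 3 kinesins the IP effect differed between the tagged lines by the test of that difference: *Kif20b* by 0.2271, *Kif15* by 0.2083 and *Kif5b* by 0.1612 log2 units, each less depleted in the *Rps27l-FLAG* IP. All were under the limit of 0.25 used for calls. Among the samples, groups held 3 libraries, too few for the test of single outlying samples.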

How the results depend on the processing

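No kinesin was higher in the IP, and none differed in total RPFs, under the alternatives tried, except with the replicate block and the length trend removed together, which gave 4 higher for *Rps27-FLAG* and 3 for *Rps27l-FLAG*. The number lower in *Rps27-FLAG*, 6, became 21 with the replicate block (edgeR, or voom and limma) and 0 with the CDS length trend removed; in *Rps27l-FLAG*, 3 became 15 and 0. Without the clone pairing, no kinesin differed in the IP effect between lines, and without the fold limit 3 did. Leaving out each clone in turn gave 0 to 13 and 0 to 3 kinesins lower, and 0 to 1 differing between lines: *Kif15* (0.26) without *Rps27-FLAG* replicate 3 and *Kif20b* (0.25) without *Rps27l-FLAG* replicate 3.

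The mitotic median of -0.221 in *Rps27-FLAG* became -0.195 with DESeq2, -0.193 with its size factors, -0.207 with TMM over all libraries, -0.0728 with the length trend removed and -0.0763 with block and length. In *Rps27l-FLAG*, -0.113 became -0.0803, -0.0797, -0.0906, 0.00492 and 0.00237. The transport median of -0.268 became -0.0415 (length) and -0.0451 (block and length), and in *Rps27l-FLAG* -0.159 became -0.125, -0.125, -0.136, -0.0102 and -0.00635 in the same order as above. The scalings move all IP fold changes together. Leaving out clones, the between-line medians ranged from 0.0506 to 0.105 (mitotic) and 0.0429 to 0.127 (transport). Over all alternatives, a call of a single member was lost 37 times, 18 of them with a clone left out, and none turned direction. Sparse members had errors too large to show changes of the size seen in abundant ones.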
